A study of Mus musculus with 4 samples.

Results

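The binding of nuclear factor I C (NFIC) at the genes of the AP-1 transcription factor family was described from a merged ChIP-Seq peak list of mouse pancreas. The family was taken as 10 genes, *Jun*, *Junb*, *Jund*, *Fos*, *Fosb*, *Fosl1*, *Fosl2*, *Batf*, *Batf3* and *Jdp2*, and their peaks were those that the authors' annotation assigns to them as the gene with the nearest transcription start site (TSS). These genes received 21 of the 15824 peaks in the list, which names 9086 genes in all. Of the 10 genes, 8 had at least 1 peak, and none was assigned to *Batf* or *Batf3*.

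Chromatin came from whole pancreas of mice aged 8 to 12 weeks in the deposited description (the study's text gives a slightly narrower range), which the text calls wild type and whose strain is labelled Mixed. There were 3 libraries of chromatin precipitated with an antibody against NFIC, a member of the nuclear factor I (NFI) family of DNA-binding proteins, and 1 library of input DNA, and all 4 carry the same tissue and strain labels. The list holds 1 score per merged peak and nothing per library, so no replicate error, depth or test can be given, and every value below is a description of this list. Whole pancreas contains acinar, ductal, endocrine, stromal and immune cells, and the list does not say in which cells a peak was bound.

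AP-1 is a dimer of basic leucine zipper (bZIP) proteins in which a JUN protein pairs with itself, with a FOS protein or with a relative such as BATF or JDP2. The dimers bind the heptamer TGACTCA, and many of their genes are immediate early genes, transcribed within minutes of growth factor, cytokine or stress signals that pass through MAP kinases. In the exocrine pancreas, *Jun* and *Fos* are known to be induced by secretagogue overstimulation and tissue injury. NFI proteins bind as dimers to the palindrome made of the arms TTGGC and GCCAA with 5 bases between them, and to a single arm more weakly.

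The sequences below are those on which the description of the sites turns, each read from GRCm38 (mm10), plus strand, 5′ to 3′. An NFI full site was counted when at most 1 of the 8 inner fixed bases of the 2 arms differed, on either strand, within 200 bp centred on the peak. The *Jun* sequences are shown because each holds a full site with no mismatch, in capitals, which 3 of the 21 peaks do. The 3′ UTR site of *Jun* is given in its immediate context only.
*Jun*, 2143 bp, site at chr4:95050062-95050074: ctgctctcTGGCTCCACGCCAaagccagg
*Jun*, -232726 bp, chr4:95284849-95285048: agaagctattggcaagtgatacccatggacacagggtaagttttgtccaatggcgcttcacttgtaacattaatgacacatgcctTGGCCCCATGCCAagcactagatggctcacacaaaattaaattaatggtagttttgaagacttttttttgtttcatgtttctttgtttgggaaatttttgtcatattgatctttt
In both, capitals run from the second base of the left arm to the fourth base of the right arm. The *Jun* upstream site is the full palindrome including both outer bases, and the 3′ UTR site departs from it at the outer base of the left arm.

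Both upstream peaks of *Jund* are shown because each holds a full site with 1 mismatch, in capitals, and because the more distant of them was the highest peak of the family after the 3′ UTR peak of *Jun*.
*Jund*, -9979 bp, chr8:70687661-70687860: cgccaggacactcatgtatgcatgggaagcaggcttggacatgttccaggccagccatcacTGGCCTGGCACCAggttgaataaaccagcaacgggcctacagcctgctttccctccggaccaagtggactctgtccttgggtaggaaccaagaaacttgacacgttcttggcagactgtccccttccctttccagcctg
*Jund*, -2336 bp, chr8:70695304-70695503: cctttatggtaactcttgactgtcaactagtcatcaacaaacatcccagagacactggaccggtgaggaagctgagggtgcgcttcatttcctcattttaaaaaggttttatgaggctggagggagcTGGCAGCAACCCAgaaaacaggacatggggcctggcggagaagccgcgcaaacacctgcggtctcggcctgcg
The next 3 sequences are the upstream peak of *Junb* and the promoter peaks of *Fos* and *Fosl2*. None holds a full site, and capitals mark single arms (TTGGC, or GCCAA where the arm lies on the other strand). In the *Fosl2* window the arms face each other with 7 bases between them in place of 5.
*Junb*, -2515 bp, chr8:84981164-84981363: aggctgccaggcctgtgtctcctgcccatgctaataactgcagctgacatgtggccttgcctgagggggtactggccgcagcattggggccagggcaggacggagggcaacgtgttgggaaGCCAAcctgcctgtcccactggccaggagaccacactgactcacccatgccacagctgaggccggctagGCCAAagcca
*Fos*, -407 bp, chr12:85473384-85473583: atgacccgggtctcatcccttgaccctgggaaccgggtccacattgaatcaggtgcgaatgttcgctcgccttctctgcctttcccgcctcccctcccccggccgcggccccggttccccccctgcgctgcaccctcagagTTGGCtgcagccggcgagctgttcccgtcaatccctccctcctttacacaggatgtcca
*Fosl2*, -973 bp, chr5:32135400-32135599: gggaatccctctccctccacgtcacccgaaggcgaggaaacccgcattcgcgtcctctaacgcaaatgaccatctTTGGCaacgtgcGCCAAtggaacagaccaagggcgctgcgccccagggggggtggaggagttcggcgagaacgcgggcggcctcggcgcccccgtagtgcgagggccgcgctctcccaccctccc
Finally, the AP-1 heptamer was present in the windows of 2 peaks, and both are shown in context with the heptamer in capitals, since the proteins made from these genes bind this sequence.
*Jun*, -91621 bp, site at chr4:95143800-95143806: caggtgacTGAGTCAtgtctgtc
*Junb*, -2515 bp, site at chr8:84981321-84981327: gaccacacTGACTCAcccatgcc

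To place the family in the list, its share of bound genes was set beside that of the protein-coding genes in RefSeq, which include many that are silent in this tissue. A peak was assigned to 8 of the 10 genes and to 36.6% of 20923 protein-coding genes. Within 5 kb of the TSS, on either side, 6 of the 10 genes had a peak (*Jun*, *Junb*, *Jund*, *Fos*, *Fosl1* and *Fosl2*), against 23.1% of protein-coding genes. In the promoter window from -1000 bp to the TSS there were 3 (*Fos*, *Fosl1* and *Fosl2*), against 10.5%. *Fosb* and *Jdp2* had a peak only farther away. With 10 genes, a change of 1 gene moves each share of the family by 10 percentage points.

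**Figure D1:**
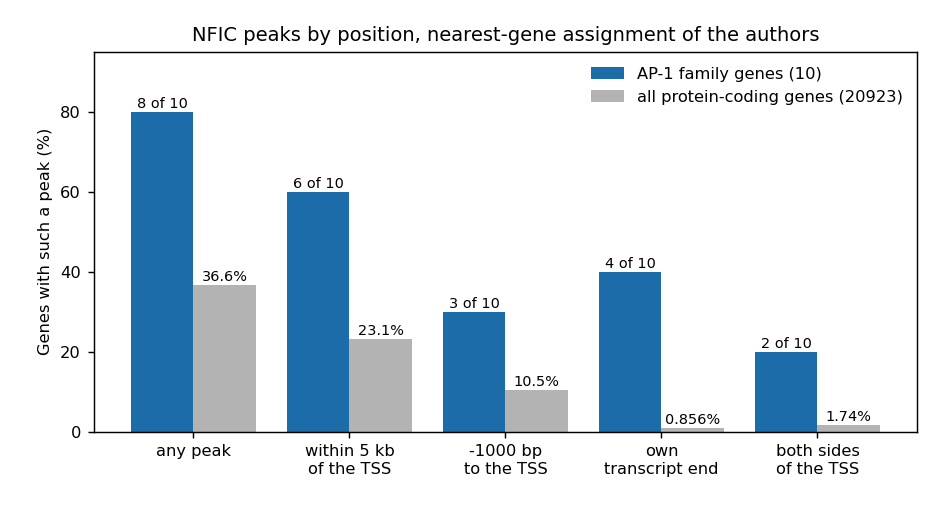
Share of genes with an NFIC peak (y axis, %) by position relative to the gene (x axis), for the 10 AP-1 family genes (blue) and for 20923 protein-coding genes (grey). The blue bar is above the grey one at all 5 positions, from 8 of 10 against 36.6% for any peak to 2 of 10 against 1.74% for a peak within 5 kb on both sides of the TSS.

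Peaks of the family lay higher in the list than a peak taken without regard to its gene. Their median score was 9.76 (range 4.18 to 30.5), against a median of 6.57 over all peaks, on the authors' scale, which is not named in the sources used here. Of the 21 peaks, 17 scored at or above 6.57, against 51.6% of all peaks, and 11 were in the top quartile of the list (9.16 or more), with 1 in the bottom quartile. Because *Jun* alone had 9 of the 21 peaks, the values were also taken without it: the remaining 12 peaks had a median of 9.46, and 11 of them scored at or above 6.57. The focus ratio, the fraction of a peak's tags near its centre, had a median of 0.674 in the family (0.583 to 0.835) and 0.684 over all peaks. The median GC content of the windows was 54.0% in both (37.0% to 69.5% in the family).

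**Figure D2:**
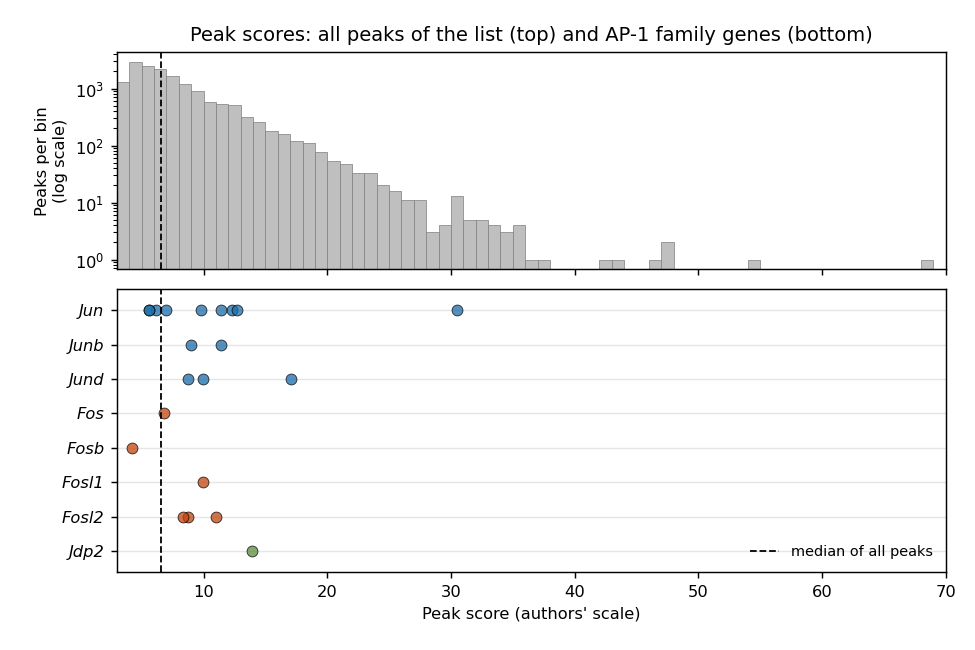
Top, number of peaks per score bin of width 1 for all 15824 peaks (y axis, log scale); bottom, the score of each of the 21 peaks of the family, 1 point per peak and 1 line per gene. The dashed line is the median of all peaks, 6.57, and 17 points lie to its right, with the 3′ UTR peak of *Jun* at 30.5 apart from the others.

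Positions differed between the branches of the family, as the map of peaks by distance shows. The 3 Jun genes, which code for the subunits able to form AP-1 without a FOS partner, had 14 peaks with a median score of 9.86. None of the 14 was in the promoter window, 5 were within 5 kb of the TSS and 3 lay at the end of the transcript. The 4 Fos genes had 6 peaks with a median of 8.56, of which 3 were in the promoter window and none at a transcript end. Of *Batf*, *Batf3* and *Jdp2*, only *Jdp2* had a peak. These are counts of a few genes, and the branches were not tested against each other.

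**Figure D3:**
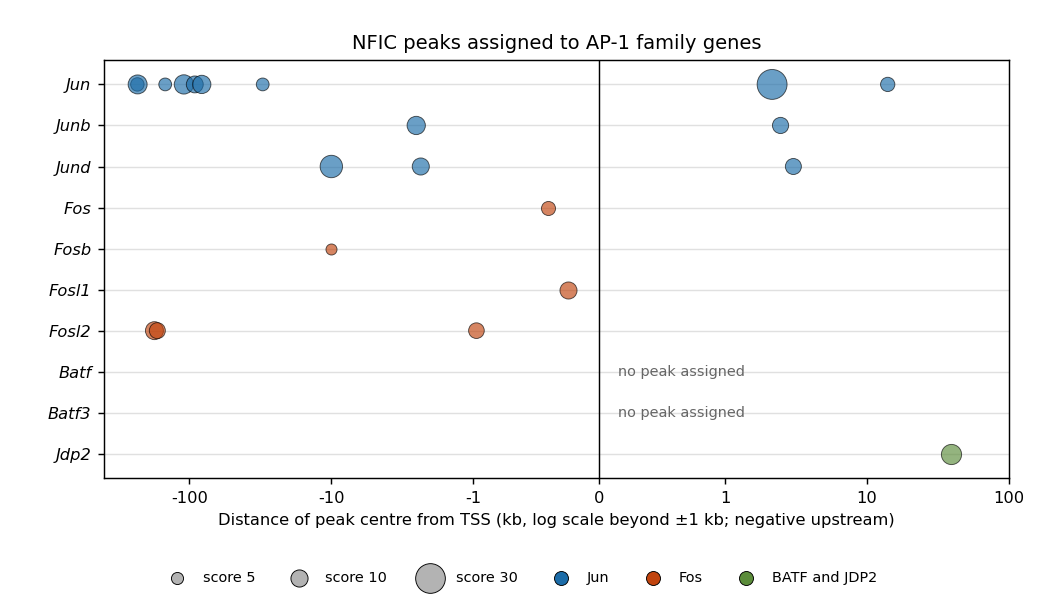
Distance of each peak centre from the TSS of its gene (x axis, kb, linear within 1 kb and log scale beyond, negative upstream) for the 10 genes, with circle area proportional to the peak score. All 3 Jun genes have a peak downstream of the TSS, at 2143, 2458 and 3027 bp, and no circle within 1 kb, whereas *Fos*, *Fosl1* and *Fosl2* each have 1 circle within 1 kb upstream.

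*Jun*, the founding member of the family and its main transactivating subunit, had the most peaks. The gene is a single exon of 3187 bp on the minus strand (chr4:95049036-95052222). It received 9 peaks, a number reached by 41 genes of the list (0.451%), whereas 61.4% of the genes had a single peak. Their scores were 6.17, 12.3, 5.58, 12.7, 9.76, 11.4 and 5.58 for the 7 upstream peaks in order of approach to the TSS, at -232726, -231707, -148078, -109345, -91621, -81803 and -30408 bp, then 30.5 at 2143 bp and 6.97 at 14002 bp. The 7 upstream peaks and the one at 14002 bp are intergenic, and no peak of the list was assigned to *Jun* between -30408 and 2143 bp.

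The strongest peak of the family lay within the *Jun* transcript (chr4:95049993-95050165). Its centre was 188 bp past the stop codon and 1043 bp before the end of the transcript, in the 3′ UTR of the only exon. A score of 30.5 or more was given to 39 peaks, 0.246% of the list. Among all 468 peaks annotated to a transcript end or 3′ UTR (2.96% of the list, median score 6.97), 2 reached 30.5. A top score as high as that of *Jun* was found for 0.429% of the bound genes, whose median top score was 7.17. The exact NFI site printed above lies at chr4:95050062-95050074, 11 bp from the peak centre.

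Upstream, *Jun* has few protein-coding neighbours, and the number of peaks was read against that space. The TSS of *Fggy* lies 505 kb upstream and that of *Mysm1* 73.1 kb downstream. Between the midpoints to these neighbours, *Jun* had 289 kb of sequence, a span reached by 9.68% of protein-coding genes (median 48.8 kb), and the 9 peaks amounted to 3.11 per 100 kb, against 0.601 per 100 kb over the genome. Rates per 100 kb were higher in the narrower spans of *Junb* (19.6), *Jund* (13.9), *Fosl1* (6.17) and *Fosb* (3.7). *Fosl1* and *Fosb* had 1 peak each, in spans of 16.2 and 27.0 kb, so their rates follow from the width of the span. No rate is given for other bound genes with spans as narrow. The rates were lower than that of *Jun* for *Fosl2* (1.12), *Jdp2* (0.936) and *Fos* (0.891), and the spans of *Batf* and *Batf3* held no peak. As many peaks in a span, whatever its width, were found for 0.33% of protein-coding genes. The assignment of the distant peaks depends on the annotation: 6 of the 7 upstream peaks are closer to *Gm12708*, a gene without a protein-coding transcript 141 kb upstream of *Jun*, and by RefSeq including such genes *Jun* kept the peaks at -30408, 2143 and 14002 bp.

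The upstream peaks of *Jun* differed in sequence. The one at -232726 bp held the exact site printed above in the window with the lowest GC content of the family, 37.0%. Sites with 1 mismatch were present at -148078, -81803 and 14002 bp, and these are shown in context with the site in capitals.
*Jun*, -148078 bp, site at chr4:95200308-95200320: tcaggaggTGGAGTGGCGCCAagagtcca
*Jun*, -81803 bp, site at chr4:95134025-95134037: attactccTGGCCCTGGCCCAggccctgt
*Jun*, 14002 bp, site at chr4:95038165-95038177: tgctgacaTGCCTGTGAGCCAaaccaaac
The peak at -81803 bp also had the highest focus ratio of the family, 0.835. The peak at -109345 bp, with the second highest score of the gene, held neither a full site nor an arm. That at -91621 bp held 2 arms and the AP-1 heptamer, 40 bp from the peak centre, and is the only peak of *Jun* with that heptamer.

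*Junb*, whose product is a weaker activator than JUN and can restrain it, is a single exon of 1840 bp on chromosome 8 (chr8:84976909-84978748, minus strand). Peaks flanked it on both sides. The upstream peak, chr8:84981177-84981349 at -2515 bp, scored 11.4, and the downstream one, chr8:84976204-84976376 at 2458 bp, scored 8.96. The latter was annotated to the transcription termination site of *Junb* and its centre lay 619 bp past the transcript end. Neither window held a full NFI site. The upstream window held 2 arms, the AP-1 heptamer 61 bp from the centre and 2 copies of the E-box CAGCTG, whereas the downstream window held no arm and 2 copies of the SP motif (GGGCGG, on both strands).

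*Jund*, the member that is expressed most constitutively and often linked to quiescence, lies on the plus strand of the same chromosome (chr8:70697739-70700616, 2878 bp). Its 3 peaks scored 17.1 at -9979 bp (chr8:70687674-70687846), 9.96 at -2336 bp (chr8:70695317-70695489) and 8.76 at 3027 bp (chr8:70700680-70700852). The most distant was thus the highest, and 3.69% of all peaks scored as high. Both upstream windows held the sites with 1 mismatch printed above, 32 and 34 bp from the peak centres. The peak at 3027 bp, 150 bp past the transcript end, held no arm, and by RefSeq its nearest TSS is that of *Iqcn*, at -1259 bp.

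A peak at the gene's own transcript end was therefore found for all 3 Jun genes and for *Jdp2*, 4 of the 10 genes, against 0.856% of protein-coding genes. This count was chosen after the positions had been seen. Among genes under 5 kb long, in which the transcript end is near the TSS, the share was 0.965% of 4765 genes, against 3 of the 4 family members of that size. *Fos* is the fourth short gene and had no such peak. Peaks within 5 kb on both sides of the TSS were assigned to 2 of the 10 genes, *Junb* and *Jund*, against 1.74% of protein-coding genes, and this count too was chosen after the positions had been seen. *Jund* enters both counts through its peak at 3027 bp, which by RefSeq is nearer to the TSS of *Iqcn*.

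**Figure D4:**
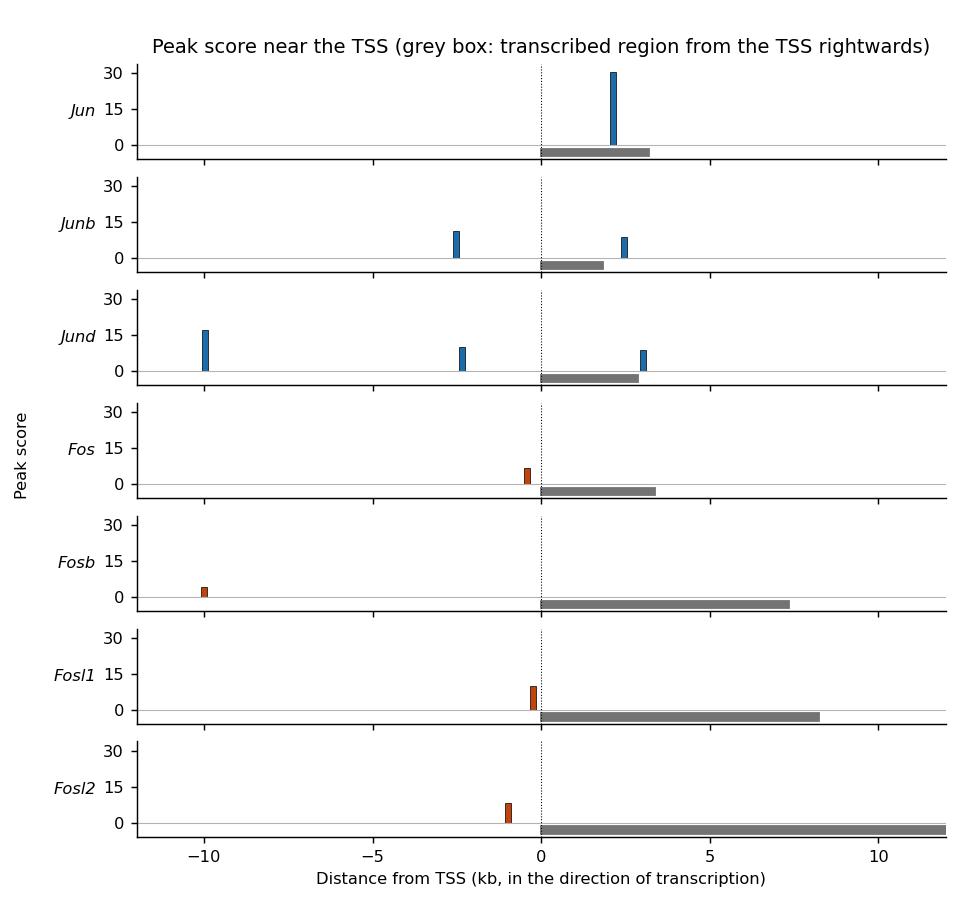
Peak score (y axis, authors' scale) against distance from the TSS (x axis, kb, in the direction of transcription) for the 7 Jun and Fos genes within 12 kb, with the transcribed region as a grey box (cut at 12 kb for *Fosl2*). The bars of *Jun* (30.5), *Junb* (8.96) and *Jund* (8.76) downstream of the TSS lie inside or just past the box, and *Fos*, *Fosb*, *Fosl1* and *Fosl2* have bars upstream only.

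*Fos*, the classical immediate early gene and partner of JUN, had a single peak in its promoter window (chr12:85473397-85473569, gene chr12:85473890-85477274, plus strand). It lay at -407 bp with a score of 6.77, just above the list's median. The window held 1 arm and no full site. The CArG box, the core of the serum response element through which SRF and its ETS partners induce *Fos*, starts 12 bp past the end of this peak, 103 bp from its centre towards the TSS, and is shown in context in capitals.
*Fos*, box at chr12:85473581-85473590: caggatgtCCATATTAGGacatctgc
Within 400 bp centred on the peak, a CArG box was present at 1 of the 21 peaks of the family, that of *Fos*, against 1.72% of all peaks and 1.48% of the 2433 promoter peaks. The wider window was chosen after the *Fos* sequence had been seen, and within 200 bp no peak of the family held a CArG box.

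*Fosb*, a FOS paralogue that is induced with *Fos*, had the weakest peak of the family. It lay at -9990 bp, outside the gene (chr7:19319949-19320121, gene chr7:19302696-19310045, minus strand), and scored 4.18, a value that 91.7% of the peaks reached. Its window held 2 arms and no full site.

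*Fosl1*, which codes for the FOS-related protein FRA1, had a single peak at -249 bp, the closest of the family to a TSS (gene chr19:5447698-5455938, plus strand). Its score was 9.96, in the top quartile, and was the highest of the 3 promoter peaks. The median score over all 2433 promoter peaks of the list was 6.57.

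*Fosl2*, which codes for FRA2, had a promoter peak and a pair of distant ones (gene chr5:32136472-32157840, plus strand). The promoter peak at -973 bp (chr5:32135413-32135585) scored 8.37, had the lowest focus ratio of the family, 0.583, and held the facing arms with 7 bases between them. The distant peaks at -176395 and -168259 bp scored 11.0 and 8.76 and lie in intron 7 of 11 of *Babam2*. They are counted for *Fosl2* because its TSS is the nearest in the authors' annotation, whereas by RefSeq both are closer to *Gm51292*. The peak at -176395 bp held 3 arms and no full site, and that at -168259 bp held neither.

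*Jdp2*, a repressor that dimerises with JUN proteins, had 1 peak in the 3′ UTR of its last exon, exon 4 of 4, at 39437 bp from the TSS (chr12:85639369-85639541, gene chr12:85599105-85639878, plus strand). Its score of 13.9 was exceeded in the family only by those of *Jun* at 2143 bp and *Jund* at -9979 bp. The centre lay 497 bp past the stop codon and 423 bp before the transcript end. The window held 1 arm, and no full site.

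*Batf* and *Batf3*, whose products lack a transactivation domain and are known mainly from lymphocytes and dendritic cells, had no assigned peak. The nearest peak of any gene lay 42.9 kb from the TSS of *Batf* (chr12:85686720-85709087) and 69.9 kb from that of *Batf3* (chr1:191098414-191108943). *Fos*, *Jdp2* and *Batf* follow each other as protein-coding genes on chromosome 12, 125 kb and 86.7 kb apart from TSS to TSS, and the spans nearest to them held 1, 1 and 0 peaks. The other wide span, that of *Fosl2* with 267 kb, held 3 peaks, 1.12 per 100 kb.

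NFI sites were counted in the windows of the family as in those of all peaks. A full site was present in 8 of the 21 windows, against 51.8% of all peaks, and a site with no mismatch in 3, against 13.4%. *Jun* had 5 of the 8 and *Jund* had 2. A single arm (TTGGC on either strand, full sites included where they contain it) was present in 15 of the 21 windows, against 68.3% of all peaks. The share of windows with a full site with up to 1 mismatch was thus below that of the list, and the shares for the exact site and the arm were close to it. None of these differences was tested. Of the 21 peaks, 10 lay beyond 30 kb of the TSS, and over the 4478 peaks of the list at such distances 56.3% held a full site. Another 3 of the 21 were promoter peaks, and over the 2433 promoter peaks of the list 37.7% held one.

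Motifs of other factors were searched as fixed letters on both strands in the same windows. The AP-1 heptamer (TGACTCA) was present in 2 of 21 windows, against 3.65% of all peaks, and both belonged to Jun genes. The cyclic AMP response element (TGACGTCA), bound by bZIP dimers of JUN with ATF proteins, was present in none, against 0.543%. The E-box of bHLH proteins (CAGCTG or CAGATG) was present in 7, against 32.5%, and the SP motif in 4, against 21.1%. The letters GATAAG, bound by GATA factors, were present in none, against 7.74%. The NR5A2 motif (TCAAGGTCA, with either pyrimidine at the first and at the seventh base) was also present in none, against 3.64%. In 21 windows, a motif held by a few percent of all peaks may be met in none, and no difference is read from these zeros.

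The promoters themselves, from 250 bp before to 50 bp after the TSS, were also searched for 9 of the 10 genes, those with an entry among 32851 RefSeq promoters of the assembly. *Fosl1*, which has a promoter peak, had no entry. Its promoter was not searched here, and the counts that follow do not cover it. None of the 9 held a full NFI site, an AP-1 heptamer, a cyclic AMP response element or a CArG box, which were present in 15.3%, 5.2%, 1.79% and 1.63% of all promoters. The CArG box of *Fos* shown above lies upstream of this window and is therefore not counted here. The SP motif was present in 7 of the 9 (*Batf*, *Batf3*, *Fos*, *Fosb*, *Fosl2*, *Jdp2* and *Jun*), against 35.7%. A family gene was counted if any of its promoter entries held the motif, whereas the shares of all promoters are per entry. The measures are therefore unlike where a gene has several entries.

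Genes that act with or on AP-1 were taken as 4 lists with 33 genes in all, of which 19 had a peak, against 36.6% of protein-coding genes (31 peaks, median score 6.77, 9 of them in the promoter window). Against the same 36.6%, 6 of 10 bZIP relatives had a peak. *Atf3*, a stress-induced partner of JUN, had a promoter peak at -311 bp with a score of 25.5 and a full site with 1 mismatch, and *Atf7* had one at -80 bp with 12.5. *Mafa* at 854 bp and *Mafg* at 743 bp scored 5.58 and 5.98. No peak was assigned to *Atf2*, *Batf2* or *Mafk*.

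Of 12 MAP kinases, their activators and factors of the serum response element, 9 had a peak, against 36.6% of protein-coding genes. A promoter peak lay at *Mapk3* (-128 bp, 8.76), which codes for ERK1. Others lay at *Mapk8* (-79 bp, 3.78), the JNK1 gene, and at its upstream kinases *Map2k4* (-54 bp, 3.59) and *Map3k1* (-621 bp, 5.58). *Elk4* had a peak at 658 bp with 5.58. Of these 12 genes, only *Mapk3* had a peak above the peak list's median within 1 kb of the TSS. *Fos*, *Fosl1* and *Fosl2* all did, as did *Atf3* and *Atf7* among the bZIP relatives. *Mapk10*, *Map2k7* and *Elk1* had none.

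Of 3 genes that control the stability of JUN proteins, *Fbxw7*, a ubiquitin ligase subunit, had 4 peaks, with a promoter peak at -983 bp and a score of 3.98, and *Cops5* and *Itch* had none, so that 1 of the 3 was bound. Of 8 textbook AP-1 target genes, 3 had a peak, a share near the 36.6% of protein-coding genes, and only *Hmox1* had one within 1 kb (-356 bp, 3.98). *Mmp3*, *Mmp9*, *Plau*, *Timp1* and *Cdkn1a* had none.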

How the data were processed

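Chromatin bound by NFIC was sequenced from mouse pancreas (3 libraries) beside input DNA (1 library). The submitters' processing notes name BWA, Picard, MACS2 and the build mm10, without versions. The study's methods name RUbioSeq+ and HOMER for downloaded ChIP-Seq data, and the peak list header names HOMER's annotatePeaks. Thresholds are not given in the sources used here. The authors deposited a merged list with a peak score on a scale not stated, a focus ratio that is a fraction of a peak's tags, and distances in bp to the nearest TSS. All peaks are 173 bp wide. The list has 0 columns per sample, so depth and replicate spread are unknown, no test was made and no p-value is given.

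Peaks were taken by gene name and counted by class, distance and score. All 10 family genes were named, and genes of the 4 pathway lists with a peak within 1 kb of a TSS, with the others counted. Some items are not reported here. Genes beside a family gene, or holding its peaks, were named to place them. Members, lists and counts were chosen with earlier results of these data known. Background shares were counted over all peaks or over protein-coding genes of RefSeq on GRCm38.p6, whose release may differ from that of the authors' annotation. Sequences and promoters are from that RefSeq copy. Motifs were searched in 200-bp windows, with at most 1 mismatch for the NFI full site only. Alternatives varied the scores kept, the merging of peaks within 500 bp, the annotation, the promoter and distance windows, and the mismatches and width of the motif search. The searches for NFI full sites, AP-1 heptamers and the nearest TSS were tested on simulated data, and the other motif searches and the counting were not. Python 3.11, numpy 2.4.6, pandas 2.3.3, pysam 0.24.0 and matplotlib 3.10.9 were used.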

Additional observations from a re-analysis of the deposited data

How the results depend on the processing

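Counts that stayed within 1.5 times the value given above were taken as kept, and any change of the median score as moved. Of 34 alternative values, 27 were kept and 7 moved. Among those kept, a window of 400 bp gave 11 peaks with an NFI full site, against 58.3% of all peaks. Counting any peak within 50 kb gave 27 peaks at 9 genes, and the share of all genes was not counted for that distance. Assigning peaks to the nearest TSS of RefSeq, non-coding genes included, left 12 of the 21 peaks with the family, 5 with an NFI full site and 1 with an AP-1 heptamer. By construction, the lost peaks are those with a TSS of another gene nearer to them. It changed neither the 8 genes with a peak nor the 6 with a peak within 5 kb. Extending the promoter window to -5000 bp gave 5 genes, since *Junb* and *Jund* entered it. Allowing no mismatch left 3 peaks with an NFI full site, and allowing 1 mismatch gave 7 with an AP-1 heptamer, a looser motif that 41.1% of all peaks hold. With only peaks at or above the list's median score, the median of the family was 9.96, which follows from the lower scores being left out, and *Fosb* lost its peak. Merging peaks within 500 bp changed no value. No paired analysis was possible because the list holds no value per sample, and no library could be left out for the same reason. What the depth of the libraries would add or remove was not tested.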

Other observations

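Scores in the list fall on a grid. Below a score of 10, 94.4% of all peaks were whole multiples of 0.1992 within the rounding of the list to 2 decimals, and there were 34 distinct values. The tie among the 21 peaks at 8.76, of *Jund* and *Fosl2*, is a value of this grid. The tie at 11.4, of *Jun* and *Junb*, lies above the scores for which the grid was checked. Whether a step stands for 1 tag is not stated in the sources used here.

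The bZIP gene *Maf*, which dimerises with FOS and JUN proteins in addition to its own family, had a single intergenic peak at -197126 bp with a score of 31.3, higher than any of the 21 peaks of the family. Its window held no NFI full site. Among the factors of the serum response element, *Elk3* had 5 intron peaks from 19.1 to 59.5 kb past the TSS with scores from 6.17 to 16.5, and those at 36.6 and 49.3 kb held a full NFI site with no mismatch. *Maf* and *Elk3* have no peak within 1 kb of a TSS and were named after their values were seen.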
